A study of Homo sapiens with 6 samples.

Results

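The SR proteins and the heterogeneous nuclear ribonucleoproteins (hnRNPs) were followed at the transcript level in UWB1.289 cells, a human ovarian cancer line, after inhibition of poly(ADP-ribose) polymerase with Olaparib. Members were the protein-coding genes with a GENCODE release 44 symbol that starts with SRSF or HNRNP. They were matched to the deposited gene counts by Ensembl identifier. The annotation held 39 such genes, 12 SRSF and 27 HNRNP, and 34 of them (11 SRSF and 23 HNRNP) passed the filter of more than 10 counts summed over the 6 samples, as did 21729 of the 63677 genes listed. Of the other members, SRSF8 was listed at 0 in every sample, HNRNPCL1 had 3 counts in all and HNRNPCL4 had 6. TAF15, a broadly expressed RNA-binding protein gene outside both families, was also listed at 0 throughout, so the 0 of SRSF8 was not read as a limit on its expression. HNRNPCL2 and HNRNPCL3 were not analysed here.

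The experiment compared 3 samples treated with 4 µM Olaparib for 24 h with 3 samples given the vehicle DMSO for the same time. The sample labels give 4 µM, whereas the design text of the series gives 10 µM. Both groups came from the same line, which the labels list with genotype WT and the study describes as BRCA1-deficient. No line with BRCA1 restored was compared. The p-values rest on the spread between samples of a group. The paper calls the replicates independent, and whether each was a dish of its own is not stated. RNA was enriched for poly(A), and the counts sum all transcripts of a gene, so isoforms of a splicing factor were not resolved.

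SR proteins carry RNA recognition motifs and a domain rich in arginine and serine. They bind exonic enhancers and recruit the U1 and U2 machinery to the splice sites nearby, and their activity is set by phosphorylation of that domain. hnRNPs coat nascent transcripts and often act against SR proteins by masking splice sites or looping out exons, and many also work in mRNA export, stability and translation. Many members of both families control their own transcripts, in part through alternative exons that send the mRNA into decay.

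Total counts per sample lay between 35360458 and 39640775, and mitochondrial genes took 5.68% to 6.11% of them. Replicates of one group differed by more than sampling noise, with a chi-square per degree of freedom of 1.81 to 4.11 over 15525 genes, so all 6 samples were counted. Replicate 1 stood apart in both groups. Its pairs gave 3.80 and 3.35 in Olaparib and 4.02 and 4.11 in DMSO. Replicates 2 and 3 gave 2.28 in Olaparib and 1.81 in DMSO. Of 13 ovarian epithelial carcinoma markers, 12 were tested, and the summed level of all 13 was 498290 to 524240 normalized counts after Olaparib and 490788 to 508051 after DMSO. PAX8 (log2 fold change 0.10, adjusted p = 0.0399) and CLDN4 (0.14, adjusted p = 0.0271) were called higher by edgeR's quasi-likelihood model, and WT1 was under the filter. PAX8 lost its call in 6 of 13 alternatives (upper-quartile scaling and without any one sample other than Olaparib replicate 1, adjusted p = 0.0604 to 0.206). CLDN4 lost it without Olaparib replicate 2 or 3 or DMSO replicate 1 or 2 (adjusted p = 0.0641 to 0.175). The 12 stromal and blood cell markers summed to 1836 to 2065 normalized counts after Olaparib and 1877 to 1979 after DMSO, mostly from COL1A2, with LUM and PECAM1 listed at 0 in every sample. VWF was the 1 called, higher in edgeR (adjusted p = 0.0106) but not in DESeq2 (adjusted p = 0.071). The part of these marker levels in the results was not tested. In these bulk samples, fewer cells of a kind and less RNA per cell cannot be told apart. Normalized counts of BRCA1 were 802 ± 36.8 in Olaparib and 736 ± 6.43 in DMSO samples (SD, n = 3 each), with an edgeR adjusted p of 0.193, and PARP1, the drug's target, had an adjusted p of 0.961.

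Of the 34 members, 5 had lower and 0 had higher transcript levels after Olaparib, with calls set at an edgeR adjusted p below 0.05. Lower calls made up 14.7% of the members tested. The background of lower calls was 1.21% of all 21729 genes tested. It was 1.71% of the 4268 genes with a mean of at least 2000 normalized counts. That of higher calls was 2.15% of all genes and 4.87% of those 4268. DESeq2 and limma voom also called 0 members higher. HNRNPH3, HNRNPA3, HNRNPA2B1 and HNRNPDL were the 4 of 23 hnRNP genes, and SRSF2 the 1 of 11 SR protein genes. The falls were small, from 6.6% to 7.3%. With a fold change above 1.2 as a further condition, 0 members were called by edgeR, DESeq2 or limma voom, where 1.21% of all genes passed in either direction in edgeR. With no adjustment of the edgeR p, 13 members were lower and 0 higher at 0.05, beside 6.97% and 7.83% of all genes. Of the 4268 abundant genes, 6.82% were lower and 15.4% higher at that threshold.

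HNRNPA2B1 (ENSG00000122566, chromosome 7, 26171151 to 26201529 on GRCh38, minus strand) encodes an A/B-type hnRNP that binds nascent transcripts and is also known for sorting microRNAs. It had 41257, 39979 and 40081 normalized counts in the 3 Olaparib samples and 42947, 43770 and 43167 in the 3 DMSO samples. Every Olaparib sample lay below every DMSO sample, and Olaparib replicate 1 was the closest to them. The log2 fold change was -0.098 (standard error, SE, 0.026; edgeR adjusted p = 0.0263, Benjamini-Hochberg). HNRNPA3 (ENSG00000170144, chromosome 2, 177212694 to 177223959, plus strand) encodes a close relative of the same type. Its samples held 18555, 18313 and 17767 normalized counts with Olaparib and 19546, 19815 and 19380 with DMSO, again with no overlap. The log2 change was -0.10 (SE 0.027; edgeR adjusted p = 0.0226).

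HNRNPH3 (ENSG00000096746, chromosome 10, 68331174 to 68343193, plus strand) belongs to the F/H group, which binds runs of guanine. It showed the steepest fall of the 5, from 12003, 12303 and 11964 normalized counts after DMSO to 11479, 11021 and 11120.5 after Olaparib. The groups did not overlap, and the log2 fold change was -0.11 (SE 0.028; edgeR adjusted p = 0.0219). HNRNPDL (ENSG00000152795, chromosome 4, 82422565 to 82430462, minus strand) is related to HNRNPD, the AU-rich element binding protein AUF1. Its values were 10270, 10023 and 10200 normalized counts with Olaparib and 11081, 10642 and 10964 with DMSO. The Olaparib values sat close together below the lowest DMSO value, with a log2 fold change of -0.10 (SE 0.029; edgeR adjusted p = 0.042).

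SRSF2 (ENSG00000161547, chromosome 17, 76734115 to 76737333, minus strand), also known as SC35, is the SR protein used to mark nuclear speckles and a frequent mutation target in myeloid neoplasms. Normalized counts were 8940.1, 8662 and 8625 after Olaparib and 9397, 9325 and 9383 after DMSO. The 3 DMSO samples were nearly equal and all above the Olaparib samples, and SRSF2 was the member closest to the threshold (log2 fold change -0.10, SE 0.029; edgeR adjusted p = 0.0468). The 5 calls depended on the samples used. Without Olaparib replicate 3, DMSO replicate 1 or DMSO replicate 2, 0 members were called by edgeR. In these fits 10, 10 and 11 members had an unadjusted edgeR p under 0.05. The share of all genes at that unadjusted threshold was not computed for them. Without Olaparib replicate 2 or DMSO replicate 3, only HNRNPA3 was called. Without Olaparib replicate 1, 8 members were called, with HNRNPD, HNRNPK and SRSF5 added. Over all genes, edgeR called 730 with all samples, 870 without Olaparib replicate 1 and 398 to 530 without any other single sample. The 5 called members kept a log2 fold change below 0 in each of the 13 alternatives computed for them. All 5 had every Olaparib sample below every DMSO sample, and the alternatives reuse these libraries. The kept sign was therefore largely given in advance.

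**Figure D1:**
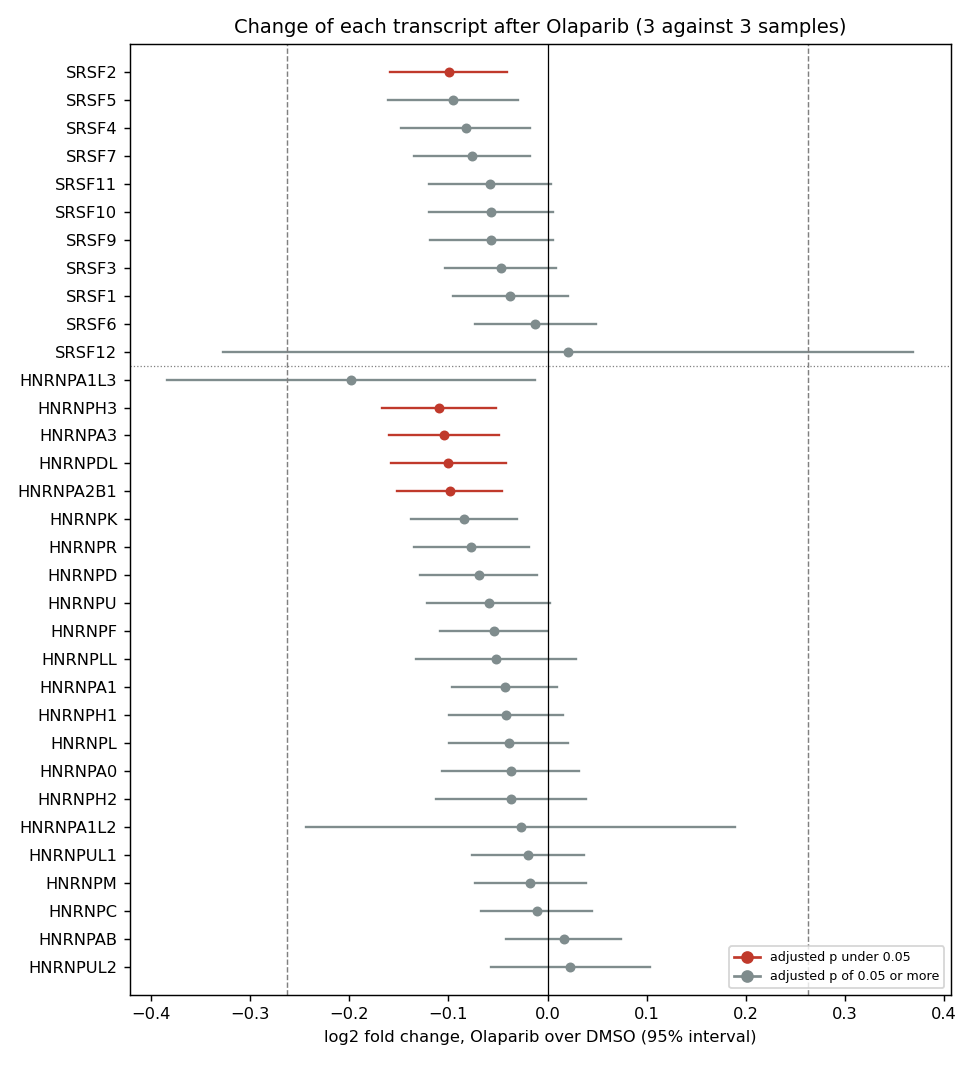
Log2 fold change of Olaparib over DMSO (x axis) for 33 of the 34 tested members (y axis, SRSF above the dotted line and HNRNP below), with lines for 95% intervals and dashed lines at a fold of 1.2 either way; HNRNPUL2-BSCL2 is left out because of its few counts. The 5 members with an adjusted p under 0.05, in red, lie between -0.11 and -0.098, inside the dashed lines.

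The promoter windows of the members called lower are shown because these transcripts moved in the same direction. Each runs from 250 bases before to 50 after the annotated start, was taken from RefSeq on GRCh38.p14, and is printed 5′ to 3′ on the strand of the gene. Of the 34 tested members, 31 had at least 1 window, 44 windows in all, and SRSF2 was not among them. The windows of HNRNPA2B1 (chr7:26200697-26200996, minus strand), HNRNPA3 (chr2:177212544-177212843, plus strand), HNRNPDL (chr4:82430413-82430712, minus strand) and HNRNPH3 (chr10:68331814-68332113, plus strand) are those at the start of the canonical transcript. Capitals mark matches, on either strand, to CCAAT (the CCAAT box), GGGCGG (the GC box) and CACGTG (the E-box), so that ATTGG and CCGCCC are matches on the opposite strand. No match overlapped another.
HNRNPA2B1: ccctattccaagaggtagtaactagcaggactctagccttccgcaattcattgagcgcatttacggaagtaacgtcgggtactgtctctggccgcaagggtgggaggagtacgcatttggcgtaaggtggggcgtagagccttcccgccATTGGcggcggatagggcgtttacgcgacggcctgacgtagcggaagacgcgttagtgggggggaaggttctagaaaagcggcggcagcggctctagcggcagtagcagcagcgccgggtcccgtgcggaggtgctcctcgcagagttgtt
HNRNPA3: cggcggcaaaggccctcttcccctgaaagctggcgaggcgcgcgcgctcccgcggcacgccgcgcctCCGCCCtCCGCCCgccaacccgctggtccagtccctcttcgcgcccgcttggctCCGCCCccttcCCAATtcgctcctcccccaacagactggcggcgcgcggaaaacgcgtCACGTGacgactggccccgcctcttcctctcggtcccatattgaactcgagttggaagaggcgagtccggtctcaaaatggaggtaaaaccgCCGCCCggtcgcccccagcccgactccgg
HNRNPDL: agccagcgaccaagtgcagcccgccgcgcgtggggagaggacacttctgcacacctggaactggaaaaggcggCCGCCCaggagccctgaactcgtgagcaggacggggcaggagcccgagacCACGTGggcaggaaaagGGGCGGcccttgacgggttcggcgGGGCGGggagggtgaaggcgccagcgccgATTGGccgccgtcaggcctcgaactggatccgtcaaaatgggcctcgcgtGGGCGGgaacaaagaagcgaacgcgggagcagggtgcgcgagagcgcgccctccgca
HNRNPH3: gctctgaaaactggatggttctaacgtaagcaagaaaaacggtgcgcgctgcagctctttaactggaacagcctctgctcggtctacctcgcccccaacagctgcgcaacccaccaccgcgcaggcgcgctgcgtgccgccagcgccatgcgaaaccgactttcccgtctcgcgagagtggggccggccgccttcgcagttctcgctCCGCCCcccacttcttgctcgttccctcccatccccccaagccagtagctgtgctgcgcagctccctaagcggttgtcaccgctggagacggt

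A CCAAT box was found 101 bases before the start in HNRNPA2B1, 118 before it in HNRNPA3 and 57 before it in HNRNPDL, counted at the first base of the match, and the printed window of HNRNPH3 held only a GC box. HNRNPA3 and HNRNPDL each held 4 GC boxes and 1 E-box. Among all members with a window, CCAAT occurred in 18 of 21 HNRNP genes and in 1 of 10 SRSF genes, SRSF3. A gene was counted if any of its windows held a match, so HNRNPH3 was counted through a window not printed here. HNRNPUL2 and its read-through gene HNRNPUL2-BSCL2 were counted separately, and the share per gene over all genes was not computed. By window, CCAAT occurred in 47.7% of member windows and in 34.6% of all 35116 windows of the same length. The GC box was found in 65.9% of member windows against 45% of all, and the E-box in 18.2% against 7.26%, with 7 HNRNP and 0 SRSF genes. TATAAA (13.6% against 11.5%) and the ETS motif CCGGAAG (11.4% against 10.3%) had shares near those of all windows, and the NRF1 motif was in 0 member windows and 1.24% of all. Member windows had a median of 29.5 CG dinucleotides and 65% G or C, against 14 and 58.7% in all windows. These matches describe the letters of the windows and were not tested against the changes in expression.

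The direction was shared by most of the members that did not pass the test. A log2 fold change below 0 was found in 31 of 34 members (91.2%), against 51.4% of all genes and 41.8% of genes with a mean of at least 2000 normalized counts. Among the 30 members as abundant as that it was 28, and the count over all members was 31 under both other scalings as well. The median was -0.057 for SRSF and -0.052 for HNRNP genes, beside -0.0042 for all genes tested and 0.013 for the abundant ones. In 14 members every Olaparib sample lay below every DMSO sample, and in 0 members above. Of all genes, 9.29% were separate in the lower direction, 10% in the higher and 19.3% in either. Among genes with a mean of at least 2000 normalized counts, these shares were 9.16%, 17.9% and 27.1%. The medians of single Olaparib samples relative to the DMSO mean were -0.037, -0.068 and -0.064 on the log2 scale for SRSF and -0.041, -0.064 and -0.067 for HNRNP. Olaparib replicate 1 was thus the nearest to DMSO for these members, and it was the highest of the Olaparib samples in 23 of 34. The same share over all genes was not computed. Over 15525 genes, Olaparib replicate 1 also differed more from replicates 2 and 3 (chi-square per degree of freedom 3.80 and 3.35). Those 2 differed less from each other (2.28).

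**Figure D2:**
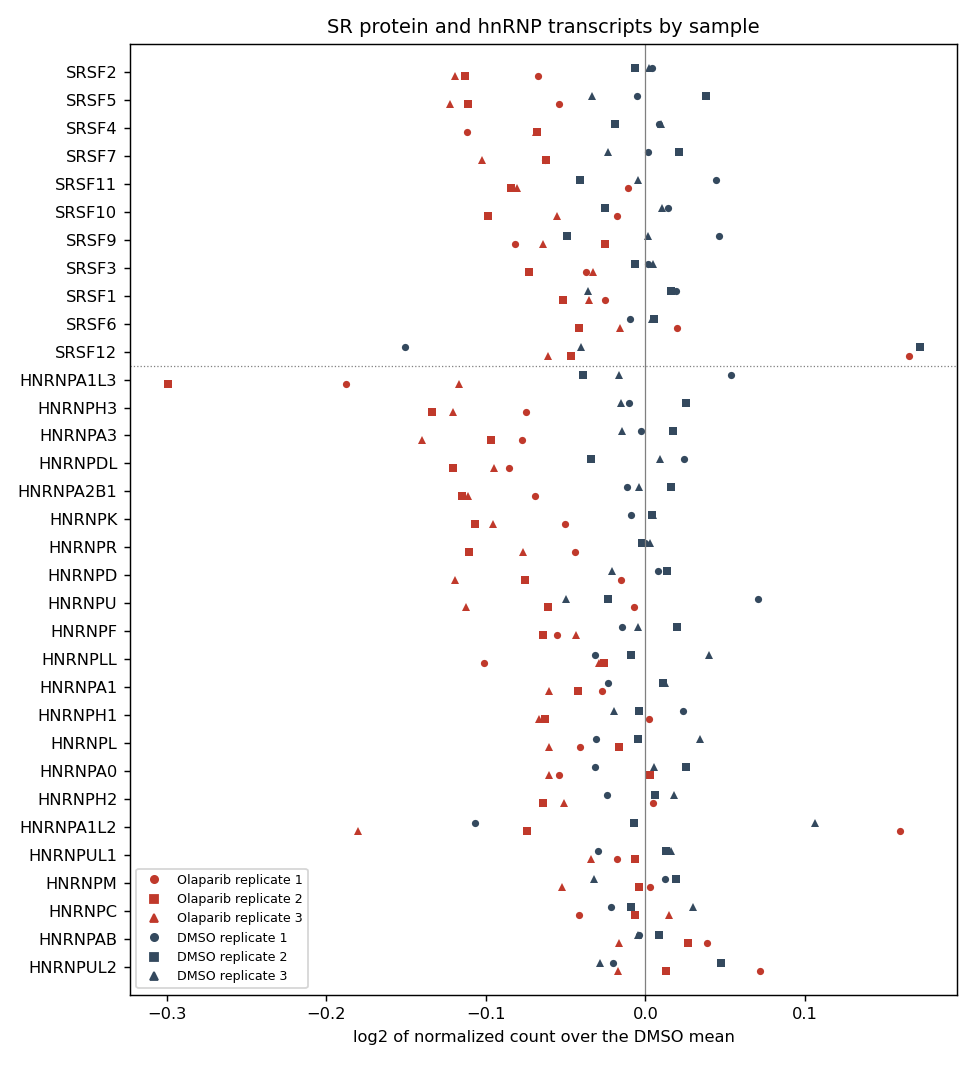
Log2 of the normalized count over the DMSO mean (x axis) in each of the 6 samples for 33 of the 34 tested members (y axis), with Olaparib in red, DMSO in dark blue and a marker shape per replicate. The Olaparib points lie to the left of all DMSO points in 14 members, and Olaparib replicate 1 (red circles) is the rightmost red point in most rows.

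Summed over each family, the share of the library was lower after Olaparib. SRSF genes took 0.223%, 0.219% and 0.221% of all gene counts in the Olaparib samples and 0.236%, 0.231% and 0.229% in the DMSO samples. HNRNP genes took 0.790%, 0.775% and 0.771% after Olaparib and 0.824%, 0.820% and 0.809% after DMSO. The Olaparib to DMSO ratio was 0.952 for both families and the groups did not overlap. An exact two-sided permutation test gave p = 0.1 for each (0.1 after adjustment over both shares), which is the smallest value that 3 samples against 3 allow.

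**Figure D3:**
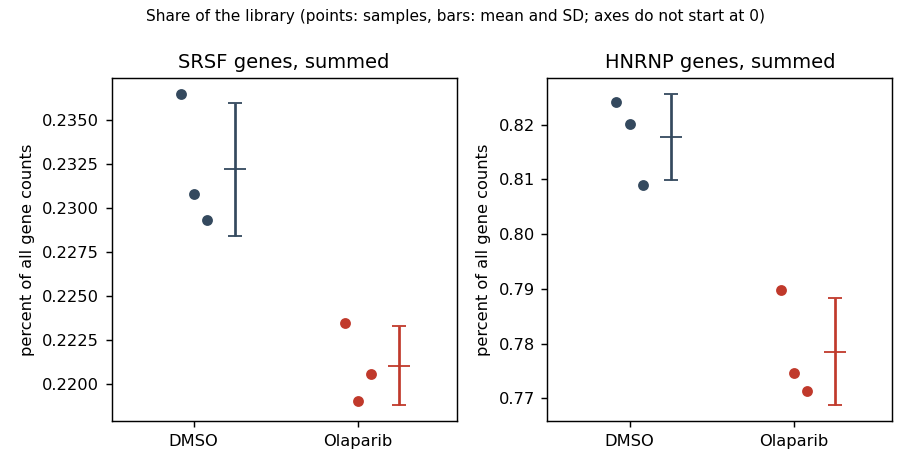
Percent of all gene counts held by SRSF genes (left) and HNRNP genes (right) in each DMSO and Olaparib sample, with points for samples and bars for mean ± SD (n = 3); the y axes do not start at 0. The Olaparib points reach at most 0.223% and 0.790%, below the lowest DMSO points of 0.229% and 0.809%.

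Among the shuttling SR proteins that also serve as export adaptors, SRSF7 had 9393, 9399 and 9142 normalized counts with Olaparib and 9826, 9958 and 9656 with DMSO, and SRSF3 had 11523, 11242 and 11557 against 11835, 11770 and 11863. The groups were separate in both genes, yet neither passed the test (log2 fold changes -0.076 and -0.047, edgeR adjusted p = 0.167 and 0.449). SRSF1, the founding splicing factor of the family, and its relative SRSF9 had overlapping groups, with log2 fold changes of -0.037 and -0.057. Counts of SRSF9 are uncertain because 43.6% of its exon bases overlap GATC on the other strand, and 32.7% of those of SRSF1 overlap another gene on the same strand.

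SRSF5 came closest to a call among the SR proteins that were not called, with 5835, 5609 and 5566 normalized counts with Olaparib and 6036, 6219.9 and 5919 with DMSO. Its log2 fold change was -0.096 (95% interval -0.16 to -0.030, edgeR adjusted p = 0.106). The paralogs SRSF4 and SRSF6, which share their domain layout, differed in value. SRSF4 had 4891, 5041 and 5038 normalized counts after Olaparib, all below the DMSO values of 5316, 5216 and 5321, with a log2 fold change of -0.083 and an edgeR adjusted p of 0.18. SRSF6 had a log2 fold change of -0.012 with a 95% interval from -0.074 to 0.049, and its groups overlapped. The difference between the paralogs was not tested.

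SRSF11, which interacts with U2AF, and SRSF10, which turns into a repressor when dephosphorylated, had log2 fold changes of -0.058 and -0.057 and overlapping groups. SRSF12, the related repressor, was sparsely counted in these cells. Its 55, 47 and 47 normalized counts with Olaparib and 44, 55 and 47 with DMSO left a 95% interval from -0.33 to 0.37 on the log2 scale, so a change of the size seen in SRSF2 was not detectable at this depth.

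Of the A/B-type hnRNPs besides HNRNPA2B1 and HNRNPA3, HNRNPA1 had 30894, 30587 and 30201 normalized counts with Olaparib and 30978, 31727 and 31764 with DMSO. The groups were separate by a narrow gap, and the log2 fold change of -0.043 had a 95% interval from -0.096 to 0.0098. HNRNPA0, encoded by a single-exon gene, and HNRNPAB, which binds AU-rich and CArG sequences, had log2 fold changes of -0.037 and 0.016 with overlapping groups. The HNRNPA1 copy HNRNPA1L3 had the lowest log2 fold change of the members with a mean of at least 20 counts, -0.198 (95% interval -0.38 to -0.012, edgeR adjusted p = 0.288). Its 175, 162 and 184 normalized counts after Olaparib lay below the 207, 194 and 197 after DMSO. The other copy, HNRNPA1L2, had 176, 150 and 139 against 146, 157 and 170, with no separation. Counts of HNRNPA1L2 are uncertain because 100% of its exon bases overlap another gene on the same strand. Reads of these copies may be shared with HNRNPA1, which has 74 named pseudogenes that together held 0.837% as many counts as HNRNPA1 itself.

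HNRNPK, a poly(C)-binding protein with KH domains, was the member just outside the threshold. Normalized counts were 25423, 24445 and 24631 after Olaparib and 26157, 26398 and 26412 after DMSO. The groups were separate, with a log2 fold change of -0.084 (SE 0.026) and an edgeR adjusted p of 0.0761, and it was called by DESeq2 and limma voom. HNRNPR, which acts in mRNA transport and transcription, had 10345, 9879 and 10115 normalized counts against 10663, 10648 and 10688, a log2 fold change of -0.077 and an edgeR adjusted p of 0.154. Its 3 DMSO samples differed by less than those of any other member, with a coefficient of variation of 0.186%. The SE of its log2 fold change was not unusual, at 0.028 beside a median of 0.029 for the abundant members. HNRNPC, which binds uridine tracts and packages nascent RNA, had overlapping groups and a log2 fold change of -0.011 (95% interval -0.067 to 0.045).

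HNRNPD, the paralog of HNRNPDL, had a log2 fold change of -0.070 and an edgeR adjusted p of 0.227, and its groups overlapped because Olaparib replicate 1 (12727 normalized counts) lay above DMSO replicate 3 (12675). Within the F/H group, HNRNPF had 17094, 16991 and 17238 normalized counts with Olaparib and 17583, 18006 and 17705 with DMSO, with separate groups, a log2 fold change of -0.054 and an edgeR adjusted p of 0.334. HNRNPH1 and HNRNPH2 had log2 fold changes of -0.042 and -0.037 with overlapping groups. HNRNPL, which binds CA repeats, and HNRNPLL, known for regulating CD45 exons in T cells, had values of -0.039 and -0.052, also with overlap.

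HNRNPM had a log2 fold change of -0.018 (95% interval -0.073 to 0.038) and HNRNPU, the scaffold attachment factor that binds chromatin-associated RNA, had -0.060 (-0.12 to 0.0025). In HNRNPU, 19.0% of exon bases overlap other genes on the opposite strand, among them COX20, which was itself lower (log2 fold change -0.18, edgeR adjusted p = 0.00827), and the part of shared reads was not tested. COX20 lost its call without DMSO replicate 2 (edgeR adjusted p = 0.0541) or DMSO replicate 3 (0.0602). The HNRNPU relatives HNRNPUL1 and HNRNPUL2 had log2 fold changes of -0.020 and 0.023. HNRNPUL2 shares 44.3% of its exon bases with the read-through gene HNRNPUL2-BSCL2, which held 17, 9.2 and 6.0 normalized counts with Olaparib and 10, 22 and 7.6 with DMSO. That gene was too sparse to measure, with a 95% interval from -1.1 to 0.52. Only HNRNPAB, HNRNPUL2 and SRSF12 had a log2 fold change above 0, and each interval included 0.

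The precision was high for the abundant members. The 30 members with a mean of at least 2000 normalized counts had a coefficient of variation of 0.725% to 3.67% over the Olaparib samples and 0.186% to 4.41% over the DMSO samples, and a median standard error of 0.029 on the log2 scale. The 95% interval lay within a fold of 1.2 in all 30 of these, and in 31 of the 34 tested, against 46.7% of all genes and 98.3% of genes as abundant.

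Overlapping genes limit part of these values. Overlap on the same strand does so under any strand setting. Overlap on the opposite strand may do so, since the setting used in counting is not given in the sources used here. In 11 of the 34 members more than 10% of exon bases overlap another gene. HNRNPA3 shares 53.6% of its exon bases with NFE2L2 on the opposite strand, which had 6320 ± 201 normalized counts with Olaparib and 6555 ± 209 with DMSO (SD, n = 3 each) and did not pass (log2 fold change -0.053, edgeR adjusted p = 0.484). SRSF2 shares 27.7% with MFSD11, whose log2 fold change was 0.059 (edgeR adjusted p = 0.593). HNRNPA2B1 shares 12.5% with CBX3 and NFE2L3, and CBX3 had a value of -0.013. HNRNPH3 shares 2.14% with RUFY2 and HNRNPDL shares none.

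Per length, the members spanned a wide range of expression. HNRNPF was highest with a DMSO level of 145 ± 1.78 RPKM (SD, n = 3), that is, counts scaled for kilobases of exon and for library size, and 140 ± 1.01 RPKM after Olaparib. HNRNPA1 (126 ± 1.77 after DMSO), HNRNPAB (125 ± 0.646) and HNRNPK (123 ± 0.670) came next, and HNRNPA1 and HNRNPAB differed by less than the SD of HNRNPA1. HNRNPA2B1 followed with 91.7 ± 0.902 after DMSO and 85.7 ± 1.5 after Olaparib, then HNRNPM with 86.2 ± 1.65 and 85.1 ± 1.78, and SRSF2, the highest SR protein, with 84.1 ± 0.340 and 78.5 ± 1.54. At the low end were HNRNPLL (11.6 ± 0.292 after DMSO), HNRNPA1L2 (3.14 ± 0.232), HNRNPA1L3 (2.77 ± 0.0934), SRSF12 (0.287 ± 0.0331) and HNRNPUL2-BSCL2 (0.0882 ± 0.0493). The order depends on the length used. With the length of the canonical transcript instead of all exon bases, an alternative chosen after seeing the data, HNRNPA2B1 ranked first with a mean over the 6 samples of 308, ahead of HNRNPK (237), HNRNPA1 (221), SRSF9 (199) and HNRNPM (194), and the rankings had a Spearman rho of 0.868 over 34 genes. Over the 30 abundant members, level per length and log2 fold change had a Spearman rho of -0.125, across genes of the same libraries.

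**Figure D4:**
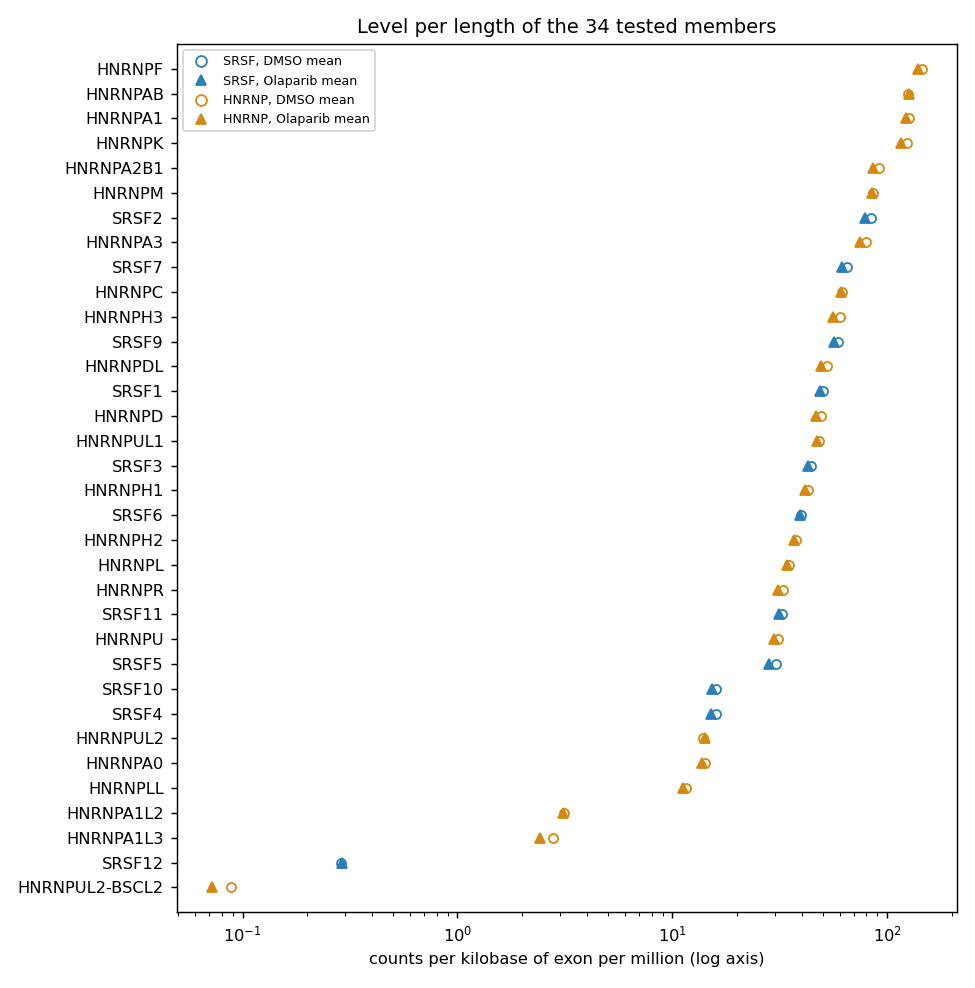
Mean level in RPKM, counts scaled for kilobases of exon and library size (x axis, log scale, n = 3 per mean), of the 34 tested members in DMSO (open circles) and Olaparib (filled triangles), SRSF in blue and HNRNP in orange, ordered by the mean over both groups. HNRNPF at 145 after DMSO and HNRNPUL2-BSCL2 at 0.0882 mark the ends, and the Olaparib symbol sits left of the DMSO symbol in most rows.

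Other genes of the splicing pathway were compared in 7 lists written from general knowledge, with 145 of 149 genes tested. Their median log2 fold change was -0.0058, beside -0.0042 for all genes and 0.013 for genes with a mean of at least 2000 normalized counts. A value below 0 was found in 81 of the 145 (55.9%), against 51.4% and 41.8% of those backgrounds. By edgeR, 5 were called lower and 0 higher, beside 1.21% and 2.15% of all genes and 1.71% and 4.87% of the abundant ones. DESeq2 and limma voom also called 5. At an unadjusted p under 0.05 in edgeR, 14 were lower and 4 higher, beside 6.97% and 7.83% of all genes. Among genes with a mean of at least 2000 normalized counts, these unadjusted shares were 6.82% and 15.4%. The list nearest to the members was that of SR-related proteins, with a median of -0.049 and 19 of 24 genes below 0. PNN, a speckle and cell junction protein, had 9032, 8983 and 8975 normalized counts with Olaparib and 9927, 9998 and 9577 with DMSO (log2 fold change -0.13, edgeR adjusted p = 0.00701). RSRC2, an arginine and serine rich coiled-coil protein, was lower by a log2 fold change of -0.13 (edgeR adjusted p = 0.0209). The groups were separate in both.

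SR protein kinases, phosphatases and importers (19 of 20 tested) had a median of 0.013, with 9 below 0. CLK2, a kinase that phosphorylates SR proteins, was the 1 gene of this list that was called. It fell from 2074, 2208 and 2075 normalized counts after DMSO to 1883, 1870 and 1813 after Olaparib (log2 fold change -0.19, edgeR adjusted p = 0.00461). Its fall was steeper than that of any called member. Among other splicing regulators (29 of 32 tested, median -0.025, 18 below 0), CELF1, which binds GU-rich RNA, and RBM39, a U2AF-related SR-like protein, were called lower (log2 fold change -0.13 and -0.098, edgeR adjusted p = 0.0327 and 0.0426). RBM39 had 9861, 9790.4 and 9933 normalized counts with Olaparib and 10592, 10463 and 10606 with DMSO, with narrow and separate groups. Of the 5 genes called in these lists, CLK2 and PNN were still called without Olaparib replicate 2 or DMSO replicate 1, PNN alone without Olaparib replicate 3, and 0 without DMSO replicate 2. CELF1 was lost without Olaparib replicate 1 and RBM39 without DMSO replicate 3.

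The other 4 lists held 0 called genes in edgeR, DESeq2 and limma voom. The list of hnRNPs with other names, such as the polypyrimidine tract and poly(C) binding proteins, had a median log2 fold change of -0.0085 over 13 genes, with 10 of them below 0 and 1 lower at an unadjusted p under 0.05. U1, U2 and 3′ splice site proteins had a median of 0.0018 over 22 genes, with 11 below 0 and 1 lower at that unadjusted threshold, and Sm and LSm core proteins one of -0.022 over 15, with 9 below 0 and 0 at that threshold. Tri-snRNP and Prp19 complex proteins lay on the other side of 0, with a median of 0.020, 18 of 23 genes above 0, 3 higher at an unadjusted p under 0.05 and 0 lower. Genes with a mean of at least 2000 normalized counts also had a median above 0, 0.013, with 41.8% below 0. At that unadjusted threshold, 15.4% of them were higher and 6.82% lower. All 4 list medians lay closer to that of all genes than the member medians did, and the difference was not tested.

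**Figure D5:**
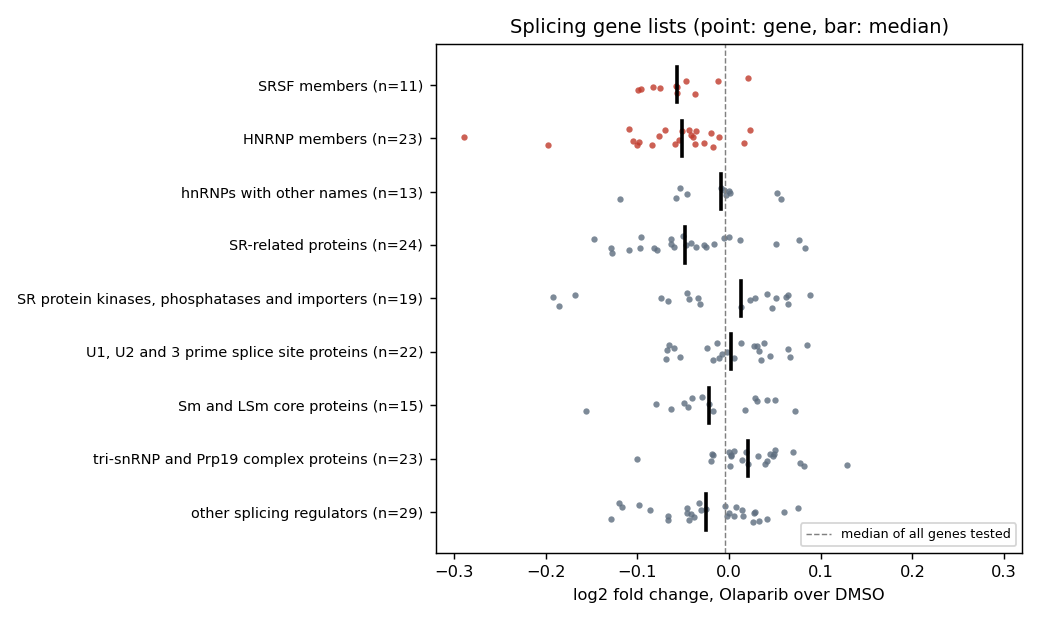
Log2 fold change of Olaparib over DMSO (x axis) for each tested gene (points) of the SRSF and HNRNP members (red) and of 7 other splicing lists (grey), with black bars for list medians and a dashed line for the median of all genes tested (-0.0042). The member medians of -0.057 and -0.052 and that of SR-related proteins (-0.049) lie furthest to the left, and 2 sparsely counted genes beyond ±0.3 are not drawn.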

How the data were processed

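RNA-seq of 3 Olaparib and 3 DMSO samples was analysed from the table the authors deposited, which holds whole-number read counts per gene without normalization. Per the paper's methods and the submitters' processing notes, the authors used Trimmomatic for adapter trimming, STAR for mapping to GRCh38, Picard to identify PCR duplicates, and featureCounts for the counts. Stranded libraries were made. Whether duplicates were removed and which strand setting was used are not given in the sources used here.

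Samples were grouped by their labels. Genes with more than 10 counts in total were normalized with TMM (factors 0.995 to 1.01) and tested with edgeR 4.0.16 (quasi-likelihood, R 4.3.3) with Benjamini-Hochberg adjustment over all 21729 genes. Normalized counts are scaled to a common library size. The common biological coefficient of variation was 0.0353. DESeq2 1.42.0, limma voom (limma 3.58.1), other scalings and filters, a replicate block and leaving out each sample were alternatives. Intervals from the fit are 95% intervals.

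Gene types, coordinates, exon bases and overlaps came from GENCODE release 44. Named genes were all tested members, the called genes of each splicing list, markers, and PARP1 and BRCA1. Genes overlapping a called member, or named in place of a count, were added after their values were seen, as were the background of genes with a mean of at least 2000 and the canonical length. The members and lists were chosen with earlier results of these data known.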

Additional observations from a re-analysis of the deposited data

How the results depend on the processing

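The 5 members called lower numbered 5 or 6 under DESeq2, limma voom, both other scalings and both other filters, with HNRNPK as the gene added. Leaving out 1 sample gave 0 to 8 calls among the members and 398 to 870 over all genes, and the cause was not tested. Each median of the SRSF members stayed below 0, and that of the HNRNP members was -0.063 to -0.036 without 1 sample. Over the 7 splicing lists, the median was -0.015 with upper-quartile scaling and -0.018 to -0.0016 without 1 sample, and 0 to 6 genes were called without 1 sample. Of 442 log2 fold changes of members over alternatives, 431 kept their sign. Those that changed it belonged to 6 members that were not called, and their ranges without 1 sample were -0.026 to 0.0061 for HNRNPC, -0.027 to 0.0024 for SRSF6, -0.13 to 0.044 for HNRNPA1L2, -0.054 to 0.11 for SRSF12, -0.00011 to 0.047 for HNRNPUL2 and -0.79 to 0.26 for HNRNPUL2-BSCL2. CBX3 (-0.032 to 0.010) and PARP1 (-0.0077 to 0.018, and -0.0047 with upper-quartile scaling) also crossed 0.

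The labels number the replicates of both groups 1 to 3. Deviations from the group means of same-numbered samples had correlations of -0.012, 0.078 and -0.0063 over 15525 genes, so the numbers were not taken to pair the samples, and not every sample correlated best with its own number. With the replicate number as a block, 10 members were called, all lower (HNRNPD, HNRNPK, HNRNPR, SRSF5 and SRSF7 added), and 11 genes of the splicing lists, 9 lower and 2 higher. Calls over all 21729 genes also rose, from 730 without the block to 1322 with it. Depth limited SRSF12, the HNRNPA1 copies and HNRNPUL2-BSCL2.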
